A study of Mus musculus with 9 samples.

Results

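Intronic circular RNAs of mouse liver are described here, defined as the rings that the deposited table tags as intron rather than exon or intergenic region. They number 589 of 11312 circular RNAs (circRNAs), beside 10591 exonic and 132 intergenic ones. All mice were wild-type C57 BL6 animals, 8 weeks old and about 20 g in weight. Control mice received saline, APAP mice received 500 mg/kg acetaminophen by intraperitoneal injection, and dmPGE2+APAP mice received 300 µg/kg dmPGE2, a stable analogue of prostaglandin E2, 1 h before the same acetaminophen dose. Livers were taken 6 h after acetaminophen, and each group had 3 libraries of whole liver RNA depleted of ribosomal RNA, with no digestion of linear RNA named. Values are counts of back-splice reads, which cross the junction that closes a ring, and CPM, which is these reads scaled to 1000000 back-splice reads of the library. The label for control matches none of the count columns by name. The 3 columns coded BC were left once the other 6 had been matched and were taken as control, so every comparison with control rests on that assignment.

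A circRNA is a covalently closed RNA that forms when a splice donor is joined backward to an upstream acceptor. Most known circRNAs hold only exons and lie in the cytoplasm. Some retain an intron between their exons, and others, called circular intronic RNAs, are intron lariats that escaped debranching and stay in the nucleus. Liver circRNAs can persist longer than mRNAs because exonucleases need a free end.

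Back-splice reads per library ranged from 69268 to 154449, except in control 3, which had 4362. Control 3 held reads of 28 intronic circRNAs, against 139 to 242 in the other 8 libraries. Many control means and counts that it moves are followed by the value without it. The smallest count above 0 was 2, so a ring listed at 0 need not have been without reads. Among hepatocyte markers, 6 of 8 genes hosted exonic circRNAs and 1 of 8, Hnf4a, an intronic one. Of 6 sinusoidal endothelial markers, 3 hosted exonic circRNAs (Stab2, Stab1 and Pecam1) and 0 an intronic one. Adgre1, 1 of 5 macrophage markers, hosted both kinds, and Ets1, 1 of 4 lymphocyte markers, only exonic ones. No marker of stellate cells, cholangiocytes or neutrophils hosted an intronic or exonic circRNA.

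The tag was first checked against GENCODE M21, an annotation of the same genome build (GRCm38). Most intronic circRNAs were not confined to an intron. Exactly 1 end lay at an annotated exon end in 501 of 589 (85.1%), against 460 of 10591 exonic circRNAs (4.34%). In 303 rings the annotated end was the 3′ end, a splice donor, and the 5′ end was not annotated. In 198 rings the 5′ end, an acceptor, was annotated and the 3′ end was not. Both ends were annotated in 3 intronic rings and neither in 85, whereas both were annotated in 94.8% of exonic rings. The 2 kinds with 1 annotated end held 84.7% of intronic back-splice reads, 57.4% with the donor and 27.3% with the acceptor annotated.

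All 671 ends that were not annotated lay inside the host gene, and 24 of them lay inside an exon. The table lists the blocks that a ring covers and gives all blocks of a ring the same tag. Of 1191 blocks tagged as intron, 613 (51.5%) were exactly an annotated exon and 474 (39.8%) overlapped no exon of that strand. At least 1 block was exactly an exon in 434 rings (73.7%). Blocks that overlapped no exon had a median length of 121 bases, against 116 for blocks equal to an exon. Only 49 rings (8.32%) overlapped no exon of their strand anywhere in their span. Thus the class mostly joins an annotated exon to a site inside an intron, and it is called intronic below only by its tag. The 599 distinct unannotated ends included 51 used by more than 1 intronic ring, with at most 4 rings at 1 end.

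No genome sequence of this build was used, so bases next to an end could be read only where a GENCODE M21 transcript covers them, often one that retains the intron. Of the 671 unannotated ends of intronic rings, 36 could be read. All 22 readable donor ends were followed by GT, and all 14 readable acceptor ends were preceded by AG. GT occupied 5.15% and AG 7.80% of adjacent base positions in the transcripts. The same held at every readable end of exonic circRNAs, with 1537 annotated and 388 unannotated donor ends and 1090 annotated and 154 unannotated acceptor ends. Whether the circRNA caller required these bases is not given in the sources used here. The following lines show 20 bases of a ring and 12 beyond its 3′ end, with the GT that follows the ring in capitals. They were chosen after their values were seen, to show unannotated donors of different hosts.

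Ghr novel_circ_0003841 (15:3544013-3544044, minus strand): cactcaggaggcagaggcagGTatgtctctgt
2210408F21Rik novel_circ_0012176 (6:31337320-31337351, plus strand): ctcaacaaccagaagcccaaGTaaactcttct
Larp1b novel_circ_0009271 (3:41004807-41004838, plus strand): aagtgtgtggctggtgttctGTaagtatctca
Ncor1 novel_circ_0001282 (11:62334008-62334039, minus strand): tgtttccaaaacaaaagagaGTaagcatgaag
Ski novel_circ_0010146 (4:155157358-155157389, minus strand): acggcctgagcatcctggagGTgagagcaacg

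The next lines show 12 bases before a ring and its opening 20 bases at an unannotated acceptor, with the AG that precedes the ring in capitals.

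Etfdh novel_circ_0009368 (3:79610599-79610630, minus strand): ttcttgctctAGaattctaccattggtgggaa
Fbxw7 novel_circ_0009399 (3:84876083-84876114, plus strand): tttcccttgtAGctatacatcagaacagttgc
Gm21049 novel_circ_0011517 (5:87379224-87379255, minus strand): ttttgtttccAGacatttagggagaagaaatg
Pck1 novel_circ_0008213 (2:173154105-173154136, plus strand): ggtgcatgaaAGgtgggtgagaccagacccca
Ulk1 novel_circ_0010705 (5:110791581-110791612, minus strand): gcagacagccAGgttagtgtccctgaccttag

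In Etfdh, Fbxw7 and Gm21049 the bases before AG are mostly t and c, the composition usual before a splice acceptor. In Pck1 and Ulk1, whose rings begin at the first base of an intron, they are not, and belong to the exon upstream.

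Rings that fill an intron were rare. The span equalled a whole annotated intron in 5 intronic rings, from Btf3, Mat1a, Cat, Hspa5 and Ulk1, and in 4 exonic ones. Another 4, from Ahcy, Pck1, Clock and Eif4g2, began at the first base of an intron and stopped 25, 84, 1 and 1 bases before its last base, and the Fasn ring began 4 bases into an intron and ended at its last base. The lines below show the spliced mRNA around the 5 whole introns, 20 bases of the upstream and 20 of the downstream exon, with the bases that flank the removed intron in capitals. Each ring was thus preceded by AG and followed by GT, although both lie in exons.

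Btf3 novel_circ_0003057 (13:98313639-98313658 and 13:98313274-98313293, minus strand): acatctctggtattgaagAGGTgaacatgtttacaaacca
Mat1a novel_circ_0003420 (14:41121453-41121472 and 14:41121780-41121799, plus strand): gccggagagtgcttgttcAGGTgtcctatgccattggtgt
Cat novel_circ_0007667 (2:103467694-103467713 and 2:103467210-103467229, minus strand): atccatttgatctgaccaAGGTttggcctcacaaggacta
Hspa5 novel_circ_0008458 (2:34774753-34774772 and 2:34775066-34775085, plus strand): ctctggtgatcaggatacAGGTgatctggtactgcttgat
Ulk1 novel_circ_0010705 (5:110791601-110791620 and 5:110791178-110791197, minus strand): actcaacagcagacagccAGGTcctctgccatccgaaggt

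The opening 60 bases of the Pck1 and Ulk1 rings, both of which begin at the first base of an intron, are shown with the GT of the 5′ splice site in capitals.

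Pck1 novel_circ_0008213 (2:173154117-173154176, plus strand): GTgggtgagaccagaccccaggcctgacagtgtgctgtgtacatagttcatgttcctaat
Ulk1 novel_circ_0010705 (5:110791541-110791600, minus strand): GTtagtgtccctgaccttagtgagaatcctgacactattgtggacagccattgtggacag

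These intron-end rings were small and sparse. Their spans ran from 293 bases in Hspa5 to 541 in Eif4g2. The ring of Mat1a, which encodes the liver enzyme that makes S-adenosylmethionine, had the most reads, with 15, 30 and 0 in the control libraries, 0, 6 and 9 with APAP alone, and 3, 4 and 15 after dmPGE2. It was present in all 3 groups, and their ranges overlapped. The ring of Pck1, the gluconeogenic enzyme phosphoenolpyruvate carboxykinase, had 26 reads in control 1 and 15 in dmPGE2+APAP 3 and was listed at 0 in the other libraries. Hspa5, an endoplasmic reticulum chaperone, had a ring with 9 reads in control 1 and 3 and 21 in dmPGE2+APAP 1 and 2. The ring of Cat, the peroxide-degrading enzyme catalase, was read in 1 library of each group, with 13 reads in control 1, 5 reads with APAP alone (APAP 2) and 9 reads in dmPGE2+APAP 1. The whole-intron rings held between 0% and 0.803% of intronic reads in a library. The 4 host genes fixed as reported sources of lariat-derived circular intronic RNAs had 0 intronic and 2 exonic rings.

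**Figure D1:**
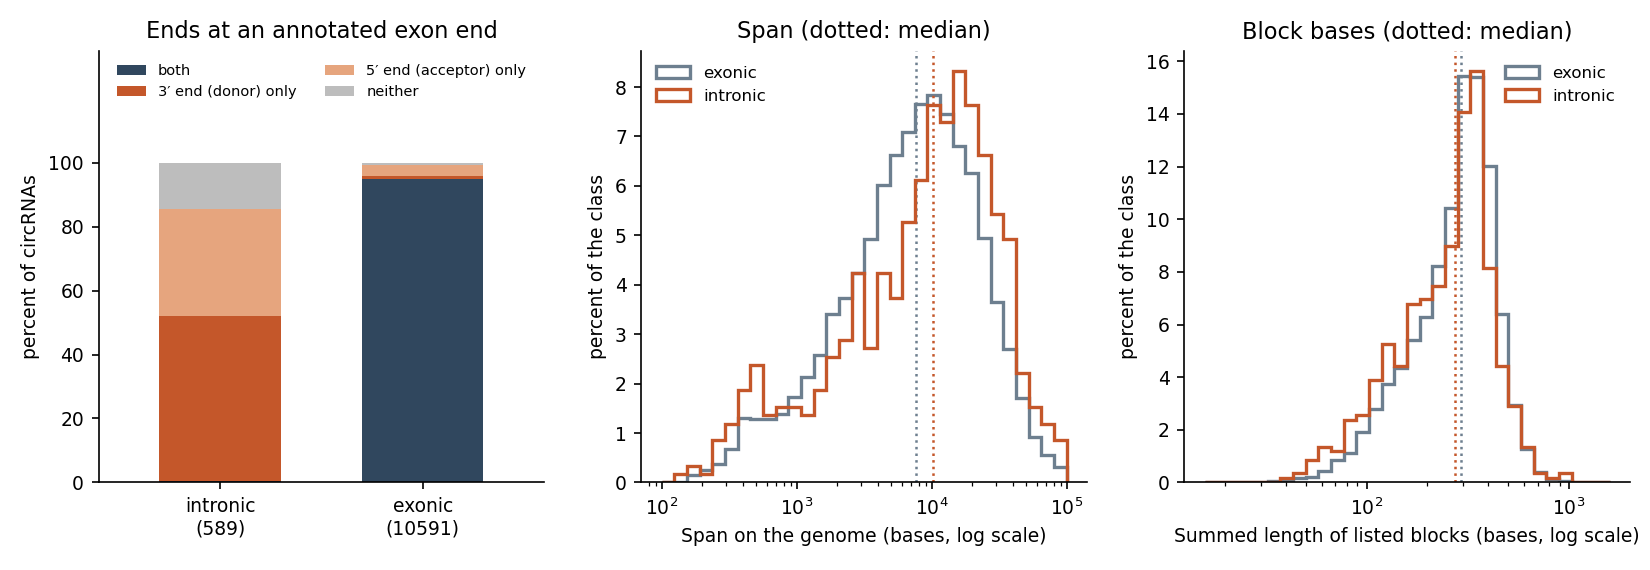
Left, percent of circRNAs by which ends lie at an annotated exon end, in 589 intronic and 10591 exonic rings. Middle and right, distributions of the span on the genome and of the summed length of the listed blocks (log axes, dotted lines at the medians): the intronic distribution lies at longer spans, with a median of 10248 bases against 7681, while block lengths largely overlap, with medians of 272 and 294 bases.

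Intronic rings had longer spans at the median and quartiles than exonic ones, with a median of 10248 bases (quartiles 3331 and 20791) against 7681 (quartiles 3246 and 15662), as the plot of ends and lengths shows. The listed blocks summed to a median of 272 bases in intronic and 294 in exonic rings. A single block was listed in 35.0% of intronic and 26.0% of exonic rings. Rings with only the donor annotated had a median span of 13772 bases and those with only the acceptor annotated 8811, whereas the whole-intron rings had a median of 345. The 3 shortest rings, of 151, 178 and 183 bases, came from Psmd11, Mfsd2a and Cpox, each with 6 reads in 1 library. The Mfsd2a and Cpox rings lay on the strand opposite to the host gene, as did 19 of 589 in all. The longest came from Ghr (novel_circ_0003822, 93793 bases), Phf14 (novel_circ_0011731, 88016 bases) and Dpyd (novel_circ_0009008, 84181 bases). Of these, the Ghr ring was abundant, while the Phf14 ring had 6 reads in 1 library.

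The intronic rings came from 391 host genes or gene groups, of which 298 had 1 such ring. A protein-coding gene was the host of 551. More than 1 host gene was named for 6.96% of intronic and 0.803% of exonic rings. The same host also gave exonic circRNAs for 485 intronic rings (82.3%), and 325 shared an end with an exonic ring. At the 267 annotated ends used by both, intronic rings took 5.30% to 6.36% of back-splice reads in single libraries, with a median of 8.02% over ends. They outnumbered the exonic reads at 36 of these ends (13.5%).

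Foxp1, a forkhead transcription factor, had the most intronic rings, 17 with 1857 reads, of which 16 were named jointly with Gm20696, beside 6 exonic rings with 532 reads. The most abundant, mmu_circ_0001500, averaged 389 ± 337 CPM in control livers, 394 ± 67.7 after APAP and 371 ± 42.2 after dmPGE2+APAP (SD, n = 3). Control 3 listed it at 0, and without that library the control mean was 584 ± 1.43 CPM (SD, n = 2). Dpyd, the enzyme that starts pyrimidine breakdown, followed with 13 intronic rings, but they held 346 reads against 2698 in its 16 exonic rings. The growth hormone receptor gene Ghr had 10 with 1482 reads, against 7379 reads in 8 exonic ones. Zranb1, a deubiquitinase gene, had 9 intronic rings with 4612 reads, all named jointly with Fgfr2, against 443 in 7 exonic ones. Bckdhb, a subunit of the branched-chain keto acid dehydrogenase, and the noncoding 9030622O22Rik had 6 each, and the transcription factor Etv6 and the corepressor Rere were 2 of 4 hosts with 5 each. Intronic reads thus exceeded exonic reads in Foxp1, Zranb1 and Etv6 (176 against 166), and not in Dpyd, Ghr, Bckdhb, 9030622O22Rik or Rere.

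Some rings differed from a neighbour by a few bases. In 44 of 589 (7.47%), another ring of the table shared 1 end and lay within 20 bases at the other, and for 18 of them that neighbour was exonic. In 14 of the 18 pairs with an exonic neighbour the exonic ring had more reads, and 8 pairs were exactly 3 bases apart. In Upp2, uridine phosphorylase, an intronic ring with 15 reads lay 11 bases from an exonic one with 1658. The reverse held in Gm29427, with 223 intronic reads and 116 exonic ones 3 bases away. These examples were chosen after their values were seen.

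By host gene list, 5.27% of all intronic and exonic rings were intronic. Secreted plasma proteins, the main export of hepatocytes, gave 3 intronic rings of 128 (2.34%), from Itih1, Serpina1b and Serpinc1. That list held neither the acute phase gene Crp, counted below under inflammation, nor the complement-related gene Cfhr3. Crp and Cfhr3 each had 4 intronic and 0 exonic rings, with 1045 and 1446 intronic reads respectively. The share of that list therefore depends on how genes were assigned. Drug metabolism gave 3 of 84 (3.57%), and lipid and bile acid metabolism 4 of 154 (2.60%), led by Insig2, Fasn and Nr1h4. Amino acid and carbohydrate metabolism gave 17 of 150 (11.3%) from 8 hosts, led by 2 Bckdhb rings and that of Mat1a. Stress, glutathione and inflammation genes gave 7 of 44 (15.9%), from Crp, Ern1, Hspa5 and Il1r1, and 4 of the 7 were from Crp alone. Markers of non-hepatocyte liver cells gave 1 of 50, a ring of the macrophage gene Adgre1 at 120 ± 104 CPM in control livers, 148 ± 17.2 after APAP and 160 ± 26.2 after dmPGE2+APAP (SD, n = 3). Control 3 listed it at 0, and without that library control stood at 180 ± 6.96 CPM (SD, n = 2), above both treated means. Long noncoding hosts gave 2 of 18, both from Pvt1, and debranching, lariat and circRNA handling factors gave 1 of 50, from Qk, an RNA-binding protein that promotes circRNA formation. Prostaglandin signalling genes gave 0 of 27. These shares are descriptions, and no list was tested.

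Single intronic rings had somewhat fewer reads than exonic ones, as a description. Their median was 12.8 CPM against 15.3 CPM, and 10.4% reached 100 CPM against 14.8%. Reads in a single library were seen for 43.1% of intronic and 38.4% of exonic rings. All 8 deeper libraries held reads of 56 intronic rings (9.51%) and of 13.4% of exonic rings. Intronic reads were concentrated: the most abundant ring held 12.5% of them and the top 10 rings 32.9%, against 2.32% and 10.2% in the exonic class.

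The most abundant intronic ring, mmu_circ_0001636 of Zranb1 (7:132948044-132950435, plus strand), ends at an annotated donor and begins at an unannotated acceptor. Its reads were 653, 589 and 25 in the control libraries, 456, 379 and 260 with APAP alone, and 535, 395 and 466 after dmPGE2. Group means were 4830 ± 795, 3804 ± 369 and 4161 ± 243 CPM (SD, n = 3). Without control 3 the control mean was 4380 ± 215 CPM (SD, n = 2). Every control library lay above every APAP library, by as little as 4228 against 4196 CPM, while dmPGE2+APAP overlapped both. These CPM carry no TMM scaling, which the edgeR fit applies. By edgeR the log2 fold change of APAP against control was -0.08 ± 0.33 SE (unadjusted p = 0.806). A second acceptor 18 bases upstream gave novel_circ_0012849, with the same donor and 173 reads in all against 3758. The acceptor of mmu_circ_0001636 itself was also used by novel_circ_0012852, mmu_circ_0001637 and novel_circ_0012853.

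Next came novel_circ_0006986 of Crp (1:172774950-172776770, plus strand), the gene of the acute phase protein C-reactive protein, with 186, 180 and 7 reads in control livers, 84, 90 and 72 after APAP, and 114, 110 and 117 after dmPGE2+APAP. Its 2 blocks overlapped no exon and neither end was annotated. Its mean was 1398 ± 201 CPM in control livers, 878 ± 142 after APAP and 1025 ± 82.2 after dmPGE2+APAP (SD, n = 3), with every control library above all 6 others. Without control 3 the control mean was 1295 ± 128 CPM (SD, n = 2). By edgeR the log2 fold change of APAP against control was -0.49 ± 0.40 SE (adjusted p = 1). Crp had 4 intronic and no exonic rings. Cfhr3, a complement factor H-related gene, also had 4 intronic and no exonic rings, led by novel_circ_0006733 (831 ± 281, 428 ± 48.8 and 807 ± 152 CPM, SD, n = 3) and novel_circ_0006735.

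**Figure D2:**
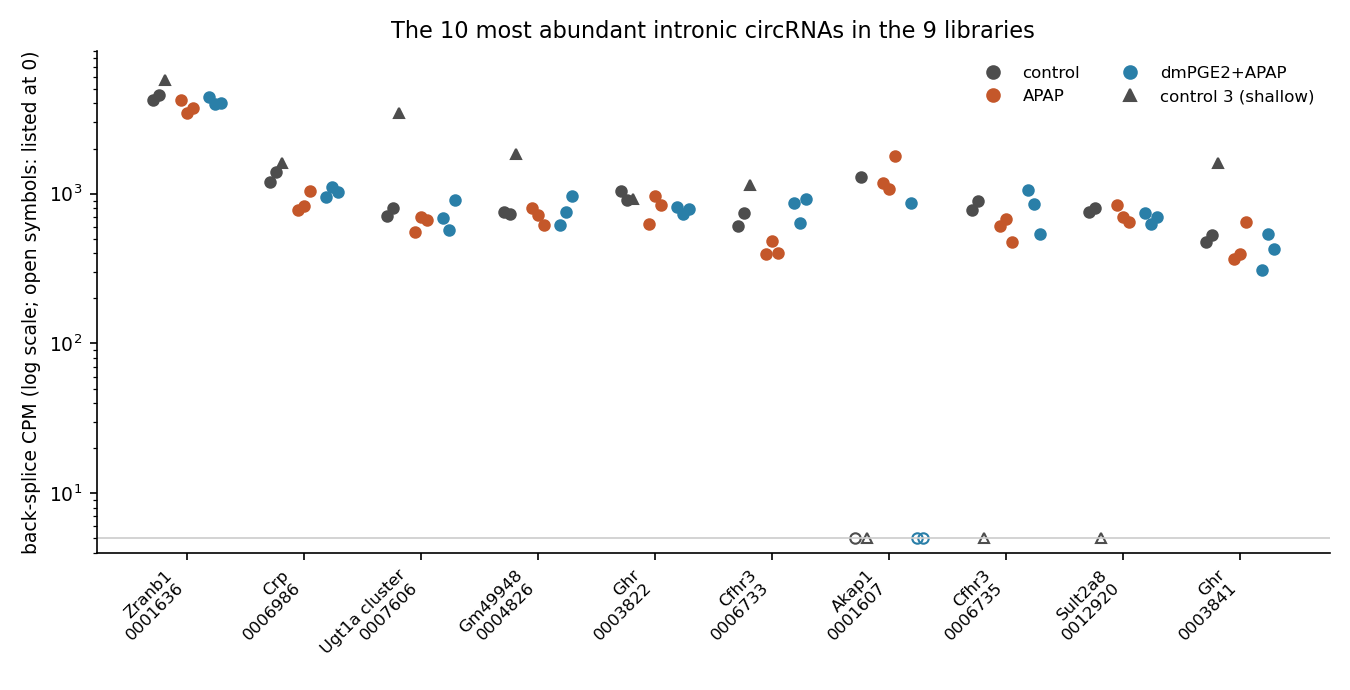
CPM (log axis) of the 10 most abundant intronic circRNAs in each library, by group, with the shallow control 3 as triangles and libraries listed at 0 as open symbols on the lower line. The Zranb1 ring leads in all 9 libraries, and the Akap1 ring is either above 800 CPM or listed at 0.

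The other rings among the top 10 came from the Ugt1a cluster of glucuronosyltransferases (novel_circ_0007606), Gm49948 (novel_circ_0004826), Ghr (novel_circ_0003822 and novel_circ_0003841), Akap1 (novel_circ_0001607) and the sulfotransferase gene Sult2a8 (novel_circ_0012920). The Ugt1a ring had 110, 105 and 15 reads in control livers, 60, 77 and 46 after APAP, and 83, 57 and 104 after dmPGE2+APAP. Its control mean of 1653 ± 1547 CPM (SD, n = 3) rested on control 3, which stood at 3439 CPM from 15 reads, and was 760 ± 67.6 without it (SD, n = 2). The long Ghr ring averaged 954 ± 71.4 CPM in control livers, 811 ± 173 after APAP and 781 ± 39.6 after dmPGE2+APAP (SD, n = 3). By edgeR none of these rings other than Akap1 passed in any comparison (adjusted p 0.942 to 1, Zranb1, Crp and Cfhr3 included). The plot of the top 10 rings gives their CPM in each library.

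The share of the class in each liver addressed whether intronic circRNAs as a whole differed between the groups. In bulk liver, fewer cells of a type and less RNA per cell cannot be told apart. Intronic rings held 3.40%, 3.44% and 3.37% of back-splice reads in the control libraries, 3.16%, 3.11% and 3.40% after APAP, and 3.45%, 3.14% and 3.22% after dmPGE2+APAP. The 95% Wilson interval, which covers counting error only, ran from 2.87% to 3.95% in control 3, and from 3.27% to 3.54% in APAP 3, the next shallowest library. Group means were 3.40% ± 0.037, 3.22% ± 0.155 and 3.27% ± 0.161 (SD, n = 3). An exact permutation test across the groups gave p = 0.304, and 0.371 without control 3. As a percent of circRNAs with reads, intronic rings made up 4.36% ± 0.498, 4.43% ± 0.134 and 4.73% ± 0.190 (SD, n = 3; p = 0.486 by the same exact permutation test). Without control 3 the control mean was 4.65% (exact permutation p = 0.118). For each pair of groups the exact permutation p lay between 0.1 and 1, and 0.1 is the smallest that 3 against 3 libraries allow. The percent of circRNAs with reads gave 0.1 for dmPGE2+APAP against APAP, with the lowest dmPGE2+APAP library at 4.595% and the highest APAP library at 4.588%. Counting only rings with at least 5 reads, these ranges overlapped, with 4.33% in dmPGE2+APAP 1 and 4.41% in APAP 1.

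**Figure D3:**
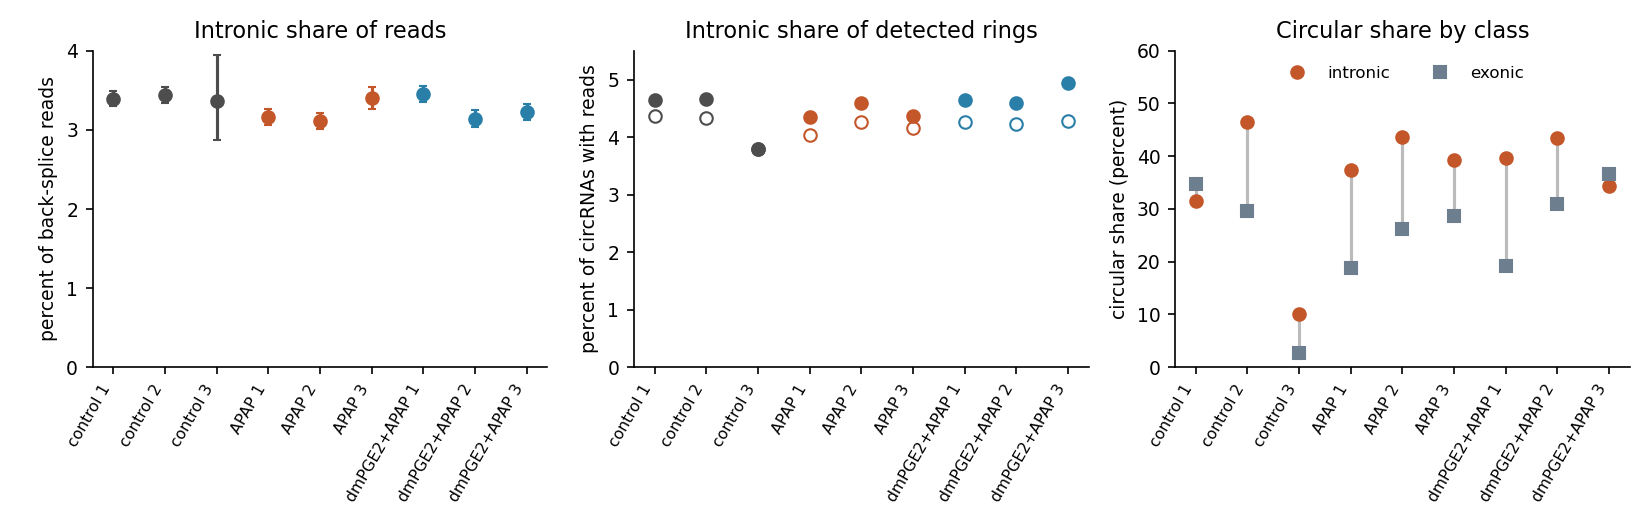
Left, intronic percent of back-splice reads per library with 95% Wilson intervals. Middle, intronic percent of circRNAs with reads, as counted (filled) and thinned to the smallest library (open). Right, circular share of intronic (circles) and exonic (squares) rings, where intronic exceeds exonic in 7 of 9 libraries.

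The circular share sets reads across the back-splice junction against the non-junction reads the table lists for the ring, as 2 × junction / (2 × junction + non-junction), summed over a class. It could be computed for 514 intronic and 8933 exonic rings. The authors' lists of non-junction reads could not be used for the others. In 69 of these intronic rings they were merged into single numbers, most often where values had 3 digits, and in 6 their length did not match the libraries, so rings with many non-junction reads are under-represented. The intronic share was 31.6%, 46.5% and 10.04% in the control libraries, 37.4%, 43.6% and 39.3% after APAP, and 39.6%, 43.5% and 34.3% after dmPGE2+APAP. The exonic share in the same order was 34.8%, 29.7% and 2.70%, then 18.8%, 26.2% and 28.6%, then 19.2%, 31.0% and 36.7%. Intronic rings stood 10.9 ± 8.80 percentage points higher (SD over 9 libraries, higher in 7 of 9, exact sign-flip permutation p = 0.0156), and 11.3 ± 9.30 points higher without control 3 (n = 8, exact permutation p = 0.0312). The 2 libraries with the opposite order were control 1 and dmPGE2+APAP 3. With at least 10 junction reads per ring and library the difference was 3.69 points, higher in 4 of 9 libraries (exact permutation p = 0.391). Rings with 50 or more junction reads had a median share of 48.3% in 85 intronic and 46.9% in 1977 exonic ones.

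Single rings varied widely. The median over intronic rings was 38.7% (quartiles 19.8% and 63.2%) and over exonic rings 29.1% (quartiles 15.6% and 50%). Where neither end was annotated the median was 54.7% in 81 rings, intron-end rings included, against 34.2% with the donor and 40.3% with the acceptor annotated. The share was 95.2% in the Akap1 ring, 86.6% in the Crp ring and 86.5% in the leading Zranb1 ring, but 26.7% in the Ghr ring novel_circ_0003841. Across groups the intronic circular share averaged 29.4% ± 18.3 in control livers, 40.1% ± 3.17 after APAP and 39.1% ± 4.62 after dmPGE2+APAP (SD, n = 3; p = 0.55 by an exact permutation test). The control mean was lowered by control 3, the lowest library at 10.04%, beside 31.6% in control 1 and 46.5% in control 2. Without control 3 the exact permutation p was 0.989. Without control 2, with control 3 left as 1 of 2 controls, it was 0.0321.

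APAP was compared with control to ask which intronic rings differ in liver 6 h into acetaminophen injury. Of 589 intronic circRNAs, 191 reached 5 or more reads in 3 or more libraries and were tested, among 4331 circRNAs in all. By edgeR 0 of 191 passed an adjusted p of 0.05 (0.139% of all tested circRNAs passed). At an unadjusted p under 0.05 there were 11 (5.76%, against 5.17% of all tested), with 7 by DESeq2 (3.66%, against 5.24%) and 17 by limma-voom (8.90%, against 8.45%). The adjusted test called 0 by DESeq2 (0.323% of all tested) and 1, Akap1, by limma-voom (0.0924% of all tested). The median log2 fold change was 0.15 over intronic and 0.16 over all tested circRNAs, with 107 intronic rings higher and 84 lower. Without control 3 the median was -0.12, with 84 higher and 107 lower. Without APAP 1 it was -0.03 over 170 tested intronic rings, with 79 higher and 87 lower, so this balance rested on single libraries. By limma-voom with all libraries the median was -0.24, with 83 higher and 108 lower.

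The 5 smallest unadjusted p-values belonged to rings that did not pass. The ring of Nrip1, a nuclear receptor corepressor, had 8, 23 and 6 reads after APAP and 18, 18 and 0 after dmPGE2+APAP, and every control library listed it at 0 (edgeR adjusted p = 0.486). That of the drug-oxidizing enzyme Aox1 was likewise listed at 0 in control, with 14, 18 and 8 reads in APAP and 6, 0 and 4 in dmPGE2+APAP (adjusted p = 0.799). A Zfp644 ring, named jointly with Gm28039, had 16, 9 and 0 reads in APAP and none listed in control (adjusted p = 0.799). The Foxp1 ring novel_circ_0012589 had 3, 0 and 0 reads in control livers, 17, 16 and 7 after APAP, and 17, 9 and 33 after dmPGE2+APAP (log2 fold change 3.60 ± 1.40 SE, adjusted p = 0.799). Its APAP libraries lay above all controls, but a ring with an acceptor 14 bases away, novel_circ_0012590, had 32, 0 and 0 reads in control livers and 19, 6 and 45 after APAP. The fifth was Akap1, described below. CPM ranges of APAP and control did not overlap in 7 intronic rings that were higher (3.66%, against 6.93% of all tested) and 6 that were lower (3.14%, against 1.82%). Without control 3 these were 9 higher (4.71%, against 8.4%) and 23 lower (12.04%, against 10.8%).

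Pretreatment was examined by setting dmPGE2+APAP against APAP. By edgeR 1 of 191 intronic rings passed, downward (0.0693% of all tested passed), and 9 had an unadjusted p under 0.05 (4.71%, against 3.81% of all tested). DESeq2 and limma-voom called 0 in this comparison, intronic or other, with 8 (4.19%, against 3.67%) and 14 (7.33%, against 6.65%) intronic rings at an unadjusted p under 0.05. The ring that passed by edgeR was novel_circ_0001607 (11:88849426-88850194, minus strand), a single 769-base block within Akap1 that overlaps no exon. Akap1 encodes a scaffold that anchors protein kinase A at mitochondria. Its reads were 0, 167 and 0 in the control libraries, 128, 117 and 124 after APAP, and 104, 0 and 0 after dmPGE2+APAP. It was thus present above 100 reads in 5 libraries, among them all 3 of APAP, and listed at 0 in 4, among them control 1, whose depth is the highest. In CPM it stood at 428 ± 742, 1346 ± 389 and 288 ± 498 (SD, n = 3), a log2 fold change of -2.08 ± 0.44 SE (adjusted p = 0.00383). Without control 3 the control mean was 642 ± 909 CPM (SD, n = 2). All 3 APAP libraries, the lowest at 1069 CPM, lay above the highest dmPGE2+APAP library at 863 CPM.

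The Akap1 call depended on tool and library. Limma-voom gave an adjusted p of 0.173 and DESeq2 gave no adjusted p for this ring. By edgeR the adjusted p was 0.715 without control 1, 1.00 without control 3, 0.224 without APAP 3, 1.00 without dmPGE2+APAP 2 and 1.00 without dmPGE2+APAP 3. In APAP against control the edgeR adjusted p was 0.559, and 7.96e-11 once control 2, the 1 control with reads, was left out. Limma-voom gave 0.0143.

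The other small p-values in this comparison did not pass (edgeR adjusted p = 1.00). The Slc22a23 ring was listed at 0 in APAP and had 8, 6 and 0 reads in control livers and 19, 0 and 19 after dmPGE2+APAP. The Lactb2 ring novel_circ_0006700 was also listed at 0 in APAP, with 15, 9 and 0 reads in control and 0, 10 and 11 in dmPGE2+APAP. However, novel_circ_0006699, which shared 1 end and lay 15 bases away at the other, did have reads in APAP. It had 16, 7 and 0 there, 15, 10 and 0 in control and 25, 15 and 0 in dmPGE2+APAP. A Rere ring was listed at 0 in dmPGE2+APAP and had 6, 15 and 0 reads in APAP. The Cfhr3 ring novel_circ_0006733 had 43, 53 and 28 reads in APAP and 104, 63 and 106 in dmPGE2+APAP, a log2 fold change of 0.97 ± 0.44 SE. Every dmPGE2+APAP library exceeded every APAP library for it, and control had 94, 96 and 5 reads, or 674 ± 91.9 CPM without control 3 (SD, n = 2). The Cfhr3 ring novel_circ_0006735, which shares an end with it, did not separate, with a log2 fold change of 0.53 ± 0.43 SE. For that ring dmPGE2+APAP 3 stood at 540 CPM, within the APAP range of 476 to 676 CPM. Ranges did not overlap in 6 intronic rings that were higher (3.14%, against 5.03% of all tested) and 6 that were lower (3.14%, against 4.13%).

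**Figure D4:**
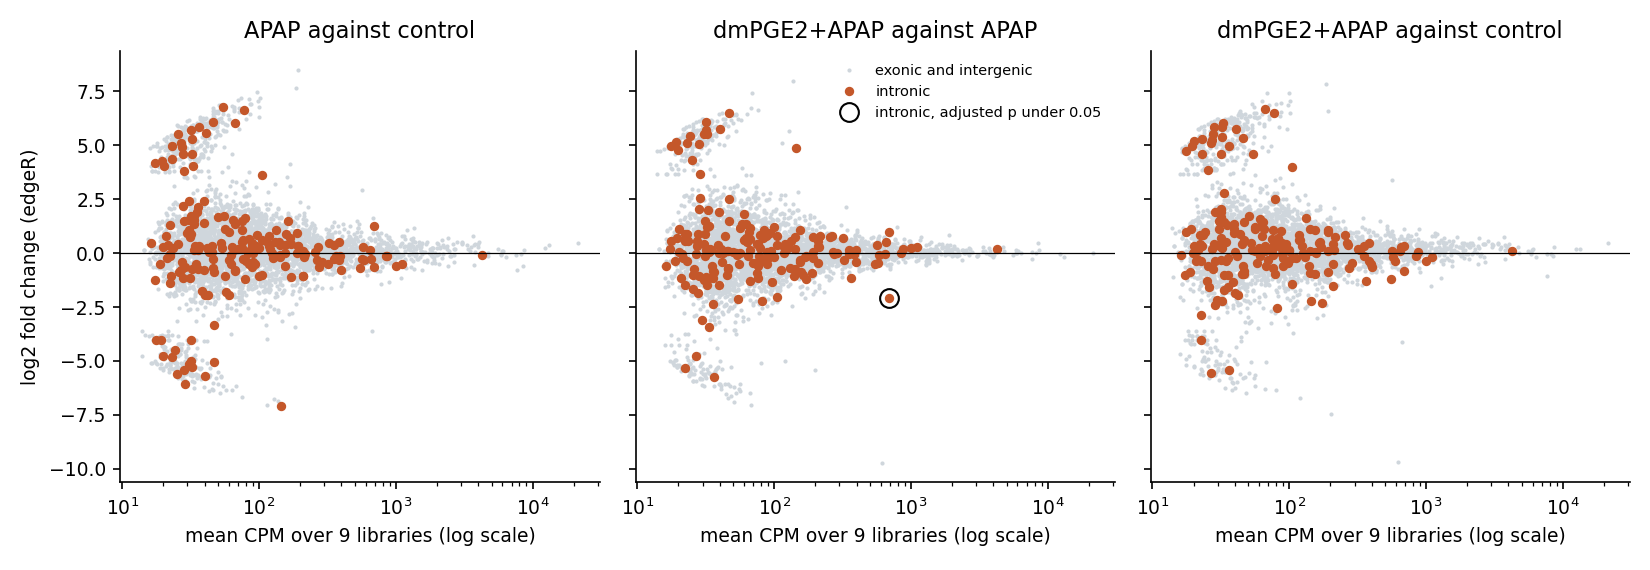
Log2 fold change by edgeR against mean CPM over the 9 libraries (log axis) for 4331 tested circRNAs in 3 comparisons, with the 191 intronic rings in colour and the 1 that passed, Akap1, circled. Detached bands of points far above and below 0 are rings listed at 0 in 1 group, whose fitted fold depends on the prior count.

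Between dmPGE2+APAP and control, 0 of 191 intronic rings passed by edgeR (0.115% of all tested passed), and 0 by DESeq2 (0.0231%) and by limma-voom (0.0462%). At an unadjusted p under 0.05 there were 8 by edgeR (4.19%, against 4.34% of all tested), 7 by DESeq2 (3.66%, against 4.02%) and 17 by limma-voom (8.90%, against 7.41%). The smallest belonged to the Nrip1, Foxp1 and Zfp644 rings above (adjusted p 0.725 to 0.801), Erbin and Zranb1. The ring of Erbin, a scaffold protein that binds the receptor ERBB2, had 53, 70 and 3 reads in control livers, 55, 27 and 31 after APAP, and 3, 18 and 35 after dmPGE2+APAP. It stood at 523 ± 173, 400 ± 136 and 170 ± 140 CPM (SD, n = 3), with an edgeR log2 fold change of -1.30 ± 0.58 SE against control (adjusted p = 0.960). Without control 3 its control mean was 441 ± 138 CPM (SD, n = 2). The Zranb1 ring novel_circ_0012852 had 59, 31 and 12 reads in control and 23, 17 and 31 in dmPGE2+APAP, and its control mean of 1124 ± 1411 CPM (SD, n = 3) rested on control 3, with 310 ± 101.5 without it (SD, n = 2). CPM ranges did not overlap in 13 intronic rings that were higher (6.81%, against 8.1% of all tested) and 3 that were lower, from Erbin, Ghr and Crp (1.57%, against 1.73%). Without control 3 these were 14 higher (7.33%, against 9.47%) and 21 lower (10.99%, against 10.4%). Without control 3 the median log2 fold change was -0.02, against 0.24 with it. The comparisons share groups, so they are not independent.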

How the data were processed

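Whole-liver libraries were profiled for circRNAs in 3 groups of 3. Per the file headers, the deposited table gives for each circRNA its position, host gene, blocks and, per library, a count of back-splice reads, left unscaled by the authors, and a TPM. In the 6 libraries of the APAP and dmPGE2+APAP groups, the deposited TPM was the count times 1 constant per library and was used only to check scaling. The 3 TPM columns coded BC were not used. HISAT2 and GRCm38 (mm10) are named without a role per the submitters' processing notes. The caller is not given in the sources used here. The 3 columns with the code BC, which no label explains, were taken as controls by elimination. Labels do not say that replicates are separate animals. The p-values therefore cover only spread among these libraries, which may be technical. Deposited starts were raised by 1.

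Members and host gene lists were chosen with earlier results of these data known. Ends and blocks were compared with GENCODE M21, which also supplied the sequences, none read from chromosome 18. Rings with 5 or more reads in 3 or more libraries were tested with edgeR 4.0.16 (R 4.3.3), the quasi-likelihood F test, TMM scaling, 1 mean per group and Benjamini-Hochberg adjustment over 4331 circRNAs. DESeq2 1.42.0 and limma 3.58.1 (voom) were alternatives. Data were also simulated for APAP against control from these libraries' means and totals with a dispersion of 0.05, with 3547 circRNAs tested. There edgeR recovered 82 of 100 circRNAs changed 4-fold and 100 of 100 changed 16-fold, with 4 false calls. That dispersion was set, not estimated from these libraries, so the recovery does not say which changes could be detected at their own spread. Class values were tested by exact two-sided permutation over libraries. Rings were named by a rule: those past the threshold, the 10 highest in CPM, the 5 smallest p per comparison, the 8 hosts with most rings, the 3 shortest and longest, and up to 3 per list. Sequences outside that rule were chosen after values were seen.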

Additional observations from a re-analysis of the deposited data

How the results depend on the processing

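Intronic calls were fitted under 16 alternatives: no TMM scaling, DESeq2 size factors in edgeR, DESeq2, limma-voom, no filter, at least 2 reads in 2 libraries, a replicate block, and 9 fits without 1 library each. For APAP against control the count of 0 became 1 with limma-voom, and 0 to 1 over the libraries left out (1 without control 2). For dmPGE2+APAP against APAP the count of 1 became 0 with DESeq2, which gives no adjusted p for that ring, and 0 with limma-voom, and was 0 to 1 over the libraries left out. For dmPGE2+APAP against control it was 0 to 1 over the libraries left out (1 without control 2 or dmPGE2+APAP 1). With the replicate block the counts were 0, 1 and 0, and the Akap1 log2 fold change was -2.84 (adjusted p = 0.00422). The labels do not pair the numbers, and same-numbered libraries did not deviate together (correlations -0.034 to 0.025 over 9 pairs). Without TMM scaling the median log2 fold change of all tested circRNAs in dmPGE2+APAP against control was 0.12, against 0.24. The log2 fold change of the Zranb1 ring mmu_circ_0001636 in APAP against control, -0.08, ran from -0.28 to 0.055 over the libraries left out, with 0.0054 without control 1, 0.055 without control 2 and 0.0062 without APAP 3. The circular share difference of 10.9 points was 3.69 points with at least 10 junction reads, 6.05 as a median over rings, 7.71 with junction reads counted once, 9.71 to 12.7 over the libraries left out, and, in alternatives chosen after seeing the data, 6.43 with the merged lists kept and 7.61 without the leading Zranb1 ring. The exact permutation p of the intronic circular share over the groups was 0.0321 to 0.989 over the libraries left out. Shares of reads and of detected rings passed under no alternative (p 0.118 to 0.861). With 3 libraries per group, 1 of them shallow, depth limits rings of few reads most. Counts of non-overlapping CPM ranges without control 3 were also chosen after seeing the data.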
